A study of Homo sapiens with 3 samples.

Results

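Oxidative phosphorylation (OXPHOS) genes were taken as all gene symbols in the counts that begin with NDUFA, NDUFB, NDUFC, NDUFS, NDUFV, UQCR, COX4, COX5, COX6, COX7, COX8, ATP5, SDHA, SDHB, SDHC, SDHD, MT-ND, MT-CO, MT-CYB or MT-ATP. NDUFAF genes, pseudogenes and antisense genes were left out. The rule found 102 of 43913 gene symbols, 89 of them nuclear and 13 encoded by the mitochondrial genome (MT- genes). It used names only and no measured value. The prefixes also took in 9 genes that are not subunits, namely the complex II assembly factors SDHAF1, SDHAF2, SDHAF3 and SDHAF4, the supercomplex factor COX7A2L, the NDUFA4 paralogue NDUFA4L2, the factor ATP5S and the gene copies UQCRHL and ATP5L2. The files give ATP synthase genes under their older symbols, so that ATP5A1 is today's ATP5F1A and ATP5G2 is ATP5MC2.

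The study addressed the crosstalk between myeloma cells and stromal cells of the bone marrow. Drop-seq, a droplet method that counts transcripts by unique molecular identifiers (UMIs), was run once on MM.1S cells in monoculture, once on HS-5 cells in monoculture and once on both lines after a coculture labelled as 4 h, although a figure legend gives 2 h. MM.1S is an established line from a patient with multiple myeloma, a cancer of plasma cells, and grows in suspension. HS-5 is an established, immortalised line of human bone marrow stromal cells. No cells were treated, and each line was sequenced as 1 culture per condition. The study's methods give RPMI medium for myeloma cells and DMEM for HS-5, so line and medium cannot be told apart in the monocultures, and the medium of the sequenced coculture is not given in the sources used here. As each condition has a single library, nothing could be tested, condition and library cannot be told apart, and every interval of a gene, sum or share below is exact at 95% and covers counting error only, while ranges given with a median of genes are the medians of those genes' lower and upper bounds.

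The respiratory chain passes electrons from NADH (complex I) and succinate (complex II) through complex III to oxygen at complex IV, and complex V (ATP synthase) uses the proton gradient that complexes I, III and IV build. Most subunits are encoded in the nucleus and imported, while a small set of hydrophobic core subunits of complexes I, III, IV and V is transcribed and translated inside the mitochondrion from long precursor RNAs that also carry the mitochondrial rRNAs. Subunits of complexes with both origins therefore come from separate transcription systems. Complex II is nuclear throughout and also serves the tricarboxylic acid cycle.

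The libraries held 10433182 UMIs in 3994 barcodes (MM.1S), 6143448 in 3865 (HS-5) and 3981392 in 3963 (coculture). Cells with at least 200 genes were kept. Coculture cells were assigned by 53 MM.1S-specific and 161 HS-5-specific genes, each at least 50 times higher in its own monoculture and none of them an OXPHOS gene. This gave 1645 MM.1S cells and 2106 HS-5 cells, and 99 cells with a mixed share (2.57% of 3856) were left out as doublets. MM.1S markers stood over 2-fold higher in the MM.1S monoculture for 12 of 13 genes. SDC1, the exception, was higher in the HS-5 monoculture, and CD79A rested on 1 UMI. HS-5 markers did so for 9 of 14 in the HS-5 monoculture. Of the others, TAGLN was near 0, FN1 and CAV1 were higher in MM.1S, and LGALS1 and S100A6 were higher in HS-5 by less than 2-fold. The libraries shared 39 to 76 barcodes. In coculture, free RNA of the other line came to an estimated 2.00% of UMIs for MM.1S and 0.98% for HS-5. The median cell held 2201 UMIs in MM.1S monoculture, 669 for MM.1S in coculture, 971.5 in HS-5 monoculture and 956.5 for HS-5 in coculture.

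Mitochondrial mRNAs were lower in cocultured than in monocultured MM.1S cells and higher in cocultured than in monocultured HS-5 cells. Summed over the 13 genes, they made 39793 counts scaled to a total of 1000000 UMIs (CPM) in MM.1S monoculture, 21440 in MM.1S cells of the coculture, 7164 in HS-5 monoculture and 13362 in HS-5 cells of the coculture. The sum was 1.86-fold lower in cocultured MM.1S cells (log2 ratio -0.89, interval -0.91 to -0.87) and 1.87-fold higher in cocultured HS-5 cells (0.90, interval 0.88 to 0.92). The intervals lie far from 0, yet they hold no error between cultures. MM.1S remained above HS-5 within the coculture. With free RNA of the other line subtracted, the log2 ratios were -0.88 for MM.1S and 0.89 for HS-5.

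The nuclear genes were also higher in sum in cocultured HS-5 cells, and in MM.1S their sum stayed close to the monoculture level. Together the 89 genes made 34159 CPM in MM.1S monoculture and 32020 in cocultured MM.1S cells, a log2 ratio of -0.09 (interval -0.11 to -0.08). In HS-5 they made 20709 CPM in monoculture and 31098 in coculture, a log2 ratio of 0.59 (interval 0.57 to 0.60). In coculture the nuclear sums of both lines thus lay within 1.03-fold of each other, after a gap of 1.65-fold between the monocultures. The mitochondrial mRNAs per nuclear OXPHOS transcript went from 1.16 to 0.670 in MM.1S and from 0.346 to 0.430 in HS-5.

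**Figure D1:**
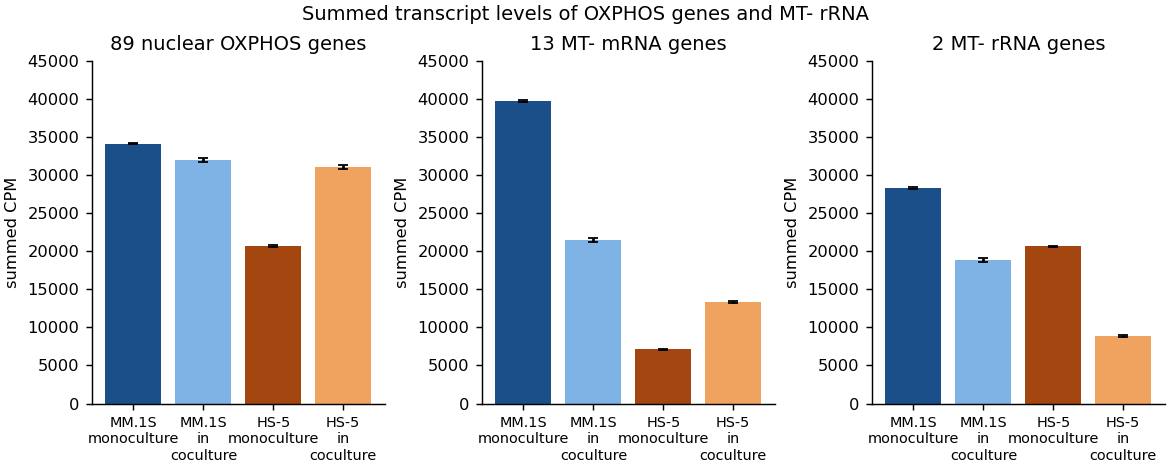
Summed CPM of the 89 nuclear OXPHOS genes, the 13 MT- mRNA genes and the 2 MT- rRNA genes in MM.1S monoculture, MM.1S cells of the coculture, HS-5 monoculture and HS-5 cells of the coculture. Bars show 1 library each and error bars the exact 95% counting interval. MT- mRNA is lower in coculture for MM.1S (21440 against 39793 CPM) and higher for HS-5 (13362 against 7164 CPM). The MT- rRNA sum, most of it MT-RNR2, is lower in coculture for both lines.

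The mitochondrial rRNAs, which share precursor RNAs with the mRNAs, differed from them in HS-5. The 2 rRNA genes made 28294 CPM in MM.1S monoculture, 18827 in MM.1S in coculture, 20646 in HS-5 monoculture and 8868 in HS-5 in coculture. The log2 ratio of their sum was -0.59 (interval -0.61 to -0.57) in MM.1S and -1.22 (interval -1.24 to -1.20) in HS-5. Most of the sum was MT-RNR2, with -0.62 in MM.1S and -1.23 in HS-5. MT-RNR1 was higher in cocultured MM.1S cells (738 CPM in monoculture and 941 in coculture, log2 0.35) and lower in cocultured HS-5 cells (-0.95). In HS-5, mRNA and rRNA of the same small genome therefore stood on opposite sides of their monoculture levels. The mRNA sum per rRNA count went from 0.347 to 1.51 in HS-5 and from 1.41 to 1.14 in MM.1S.

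Of the 13 MT- mRNA genes in MM.1S, 10 were lower in coculture by 1.5-fold or more and none was higher by that much, while 13.9% of all 7832 genes that averaged 10 CPM or more were lower by that limit and 33.5% higher. The median over all those genes was itself 0.24, and the median of the 13 was -0.83, so relative to all genes they lay still lower. MT-CO3, a core subunit of complex IV, stood at 9100 CPM in MM.1S monoculture, 4338 in MM.1S in coculture, 1258 in HS-5 monoculture and 2255 in HS-5 in coculture. MT-CO1, the catalytic subunit, stood at 5758, 3122, 924 and 2338 CPM in the same order. MT-CYB, cytochrome b of complex III, stood at 3766, 1490, 473 and 924 CPM. For all 3, MM.1S monoculture was the highest of the 4 groups and HS-5 monoculture the lowest. The log2 ratios in MM.1S were -1.07 for MT-CO3, -0.88 for MT-CO1 and -1.34 for MT-CYB.

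Most complex I genes of the mitochondrial genome also had MM.1S monoculture as the highest group and HS-5 monoculture as the lowest, MT-ND3 being the exception. MT-ND4, a proton-pumping subunit, stood at 4297, 2420, 921 and 2231 CPM (MM.1S monoculture and coculture, then HS-5 monoculture and coculture). MT-ND5, another one, stood at 3480, 1606, 641 and 1043 CPM. MT-ND4L stood at 1791, 334.5, 134 and 325.5 CPM. MT-ND4L had the lowest ratio of the 13 in MM.1S (log2 -2.42, interval -2.56 to -2.29) although MT-ND4, whose reading frame overlaps it on the same mRNA, had -0.83, and reads of this pair may have been split by the authors' counting. MT-ND1 (865, 504, 229 and 341 CPM) and MT-ND6 (1634, 980, 439 and 693 CPM) had ratios of -0.78 and -0.74 in MM.1S. MT-ND6, whose gene lies on the opposite strand to MT-ND5, is the single light-strand mRNA, and reads of the pair cannot be told apart where strand was not used. MT-ND2 (1294, 1118, 453 and 833 CPM) was lower in MM.1S by less than 1.5-fold (-0.21).

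A few mitochondrial mRNAs stood apart from the rest. MT-CO2, catalytic subunit 2 of complex IV, stood at 3877, 3016, 234 and 516 CPM, so that it differed more between the lines than between cultures. Its ratio was -0.36 in MM.1S and 1.14 in HS-5. MT-ATP8 stood at 609, 631, 567 and 464 CPM and stayed within 1.5-fold in all 4 comparisons of the groups. MT-ATP6, the proton channel subunit of ATP synthase on the same mRNA as MT-ATP8, stood at 2496, 1605, 607 and 1167 CPM. How reads of this pair were split between the genes was not tested. MT-ND3 stood at 824, 276, 286 and 233 CPM, with its ratio at -1.58 in MM.1S and -0.30 in HS-5.

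In HS-5, 10 of the 13 MT- mRNA genes were higher in coculture by 1.5-fold or more and none lower, against 7.78% of 8812 genes higher by that limit and 9.88% lower. The median of the 13 was 0.88, beside -0.04 over all genes. The highest ratios belonged to MT-CO1 (1.34, interval 1.29 to 1.39), MT-ND4 (1.28, interval 1.22 to 1.33) and MT-ND4L (1.27, interval 1.14 to 1.42). The rest of the 10 were MT-CO2 (1.14), MT-CYB (0.97), MT-ATP6 (0.94), MT-ND2 (0.88), MT-CO3 (0.84), MT-ND5 (0.70) and MT-ND6 (0.66). MT-ND1 fell just short of the limit at 0.57, and MT-ND3 (-0.30) and MT-ATP8 (-0.29) were the 2 genes on the lower side. Of the 13, 8 were past 1.5-fold in both lines in opposite directions and none in the same direction. The share of all genes past the limit in both lines was not worked out.

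**Figure D2:**
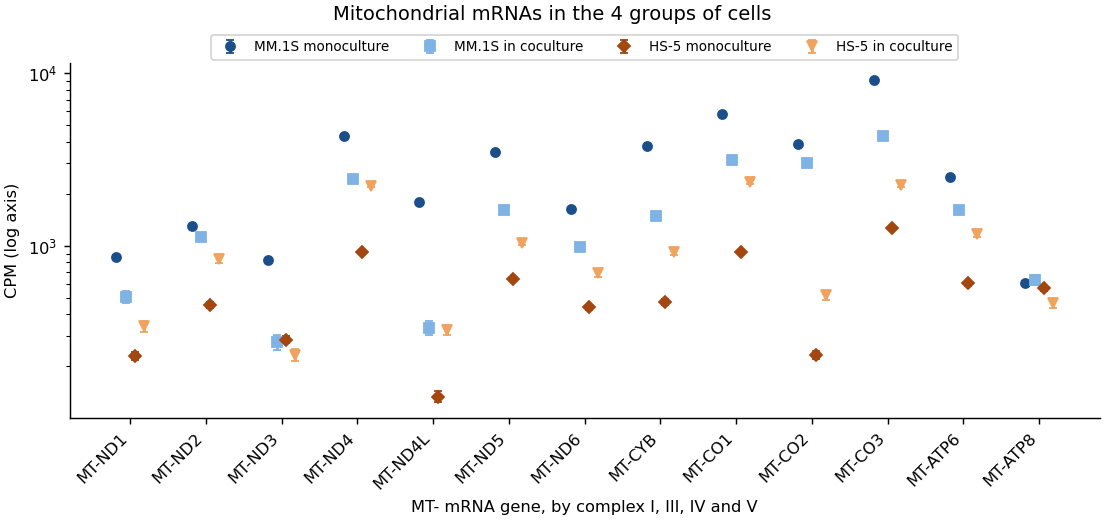
CPM (log axis) of each of the 13 MT- mRNA genes in the 4 groups of cells, 1 library each, with exact 95% counting intervals. MM.1S monoculture is highest for every gene but MT-ATP8, and HS-5 monoculture is lowest for every gene but MT-ND3 and MT-ATP8.

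The make-up of the mitochondrial mRNA pool also differed. MT-ND4L made 4.50% of it in MM.1S monoculture (exact binomial interval 4.44 to 4.56) and 1.56% in MM.1S in coculture (1.42 to 1.71). MT-ATP8 made 1.53% and 2.94% in these groups, against 7.91% in HS-5 monoculture and 3.47% in HS-5 in coculture. MT-CO2 made 9.74% and 14.1% in MM.1S, and 3.26% and 3.86% in HS-5. As counted, the pool of HS-5 monoculture was thus richer in MT-ATP8 and poorer in MT-CO2 than that of MM.1S. MT-ATP6, on the same mRNA as MT-ATP8, made 6.27%, 7.48%, 8.47% and 8.73% in the 4 groups. The split of reads between MT-ATP8 and MT-ATP6 was not tested. Nuclear pseudogenes of mitochondrial mRNAs can take such reads: their sum was 721, 831, 275 and 543 CPM in the 4 groups, and MTCO1P40 alone, at 277, 525, 119 and 345 CPM, was higher in coculture in both lines. How reads were shared between MT- genes and these copies was not tested; with the copies added to the sum, its log2 ratio was -0.86 in MM.1S.

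Of the 89 nuclear genes, 82 passed the minimum mean of 10 CPM in the MM.1S comparison. Of these, 56 were lower and 26 higher in coculture, against 38% and 62% of all genes, 13 and 8 of them by 1.5-fold or more. Their median log2 ratio was -0.25 (median bounds -0.42 and -0.06), beside 0.24 over all genes. The share past 1.5-fold on the lower side thus lay near that of all genes given above (13.9%), and on the higher side well under it (33.5%). The direction of this median depended on which cells were compared, as the median turned to 0.28 when only cells of 500 to 1000 UMIs were kept (77 cells in MM.1S monoculture), where the median of all genes was 0.17. It was -0.02 once the trend of the ratio with transcript length was removed, where the median of all genes was still 0.24. With TMM scaling it was -0.78, beside -0.29 for all genes.

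Complex II stood out among the complexes in MM.1S cells by its low ratios. Its 4 subunits were all lower in coculture, with a median of -0.85. SDHD, a membrane anchor, stood at 179 CPM in MM.1S monoculture, 61.6 in MM.1S in coculture, 63.7 in HS-5 monoculture and 69.0 in HS-5 in coculture, a log2 ratio of -1.52 in MM.1S (interval -1.87 to -1.22). SDHA, the flavin subunit that oxidises succinate, stood at 151, 69.2, 33.0 and 42.8 CPM, a ratio of -1.11 (interval -1.44 to -0.82). In both genes the MM.1S monoculture was the highest of the 4 groups, and for SDHA the lines also differed within the coculture (log2 -0.68). SDHB, the iron-sulphur subunit (198, 132, 169 and 226.5 CPM), and SDHC, the other anchor (71.3, 51.1, 44.8 and 45.6 CPM), had ratios of -0.58 and -0.47. In HS-5 the 4 subunits ranged from 0.03 to 0.42, none past 1.5-fold.

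Genes named for ATP synthase held both the lowest and the highest nuclear ratio among MM.1S genes averaging 50 CPM or more, the highest being that of a gene copy. The lowest was that of ATP5G2, one of 3 genes for the same c-ring protein, at 719, 217, 179 and 210.4 CPM (MM.1S monoculture and coculture, HS-5 monoculture and coculture). Its log2 ratio in MM.1S was -1.72 (interval -1.90 to -1.56). The other 2 c-ring genes stood closer to their monoculture level, ATP5G1 with -0.24 (580, 491, 158 and 296 CPM) and ATP5G3 with -0.44 (697, 513, 476 and 653 CPM). The genes for 1 protein thus differed among themselves in MM.1S, and in HS-5 their ratios were 0.91 (ATP5G1), 0.46 (ATP5G3) and 0.23 (ATP5G2). The highest ratio was that of ATP5L2 (86.6, 346.5, 148 and 259 CPM, log2 1.99), a near-identical copy of ATP5L (1526, 1414, 712 and 1092 CPM, log2 -0.11), so the split of reads between both is uncertain.

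The same holds for UQCRHL, the copy of UQCRH. UQCRHL stood at 71.0, 189, 23.6 and 43.6 CPM (log2 1.40 in MM.1S), and UQCRH, a small subunit of complex III, at 2513, 2031, 299 and 463 CPM (log2 -0.31). In MM.1S the copy was higher in coculture and the parent gene lower in both pairs, while in HS-5 the parents were higher as well (ATP5L 0.62, UQCRH 0.63). Pseudogenes of the nuclear members as a whole stood at 148, 294, 369 and 476 CPM in the 4 groups. Their part in the values of the copies was not tested.

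Among genes with no such copy and a mean of at least 50 CPM, NDUFA13, a complex I subunit also known as GRIM-19, had the highest ratio in MM.1S, at 379, 756, 976 and 1687 CPM and a log2 of 0.99 (interval 0.89 to 1.096). ATP5J2, subunit f of ATP synthase, stood at 431, 831, 128 and 302 CPM (0.95). NDUFB2, in the membrane arm of complex I, stood at 756, 1378, 309 and 560 CPM (0.87). These 3 genes were higher in coculture in both lines, and so was UQCR11 of complex III (639, 1084, 346 and 686 CPM, 0.76 in MM.1S). ATP5I, subunit e of ATP synthase, had 0.86 in MM.1S and 0.45 in HS-5. In all, 6 nuclear genes were higher by 1.5-fold in both lines, the 2 others being the copies ATP5L2 and UQCRHL. The matching share of all genes was not worked out, so whether this count is unusual is not known.

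Complexes I, III and IV in MM.1S held both directions. Complex I had a median of -0.15 over 36 nuclear genes, with NDUFS4 as its lowest gene of at least 50 CPM (118, 63.1, 82.9 and 128 CPM, log2 -0.89). Complex III had a median of -0.31 over 9 genes and UQCRC2, core protein 2, as its lowest (148, 105, 58.8 and 79.5 CPM, -0.48). Complex IV had a median of -0.37 over 13 genes, 12 of them lower. COX7B, one of its nuclear subunits, stood at 805, 452.5, 164 and 281 CPM, a ratio of -0.83. COX7A2L, which joins complexes III and IV into supercomplexes, stood at 128, 66.9, 145 and 164 CPM (-0.93). COX6A1 alone was higher in complex IV (488, 662, 374 and 785 CPM, 0.44). Complex V had a median of -0.12 over 17 genes. The sums read differently from these medians. The complex I sum was slightly higher in cocultured MM.1S cells (9785 CPM in monoculture and 10503 in coculture, log2 0.10, interval 0.08 to 0.13). The complex III sum lay at its monoculture level within counting error (-0.03, interval -0.06 to 0.01). The sums of complexes IV and V had -0.37 and -0.07.

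The core subunits, counted here as the conserved nuclear subunits of complex I, SDHA, SDHB, the Rieske and core proteins of complex III and the alpha and beta subunits of ATP synthase, lay mostly on the lower side in MM.1S. The 13 core genes with at least 10 CPM had a median of -0.47, 3 of them lower by 1.5-fold and none higher. Among all genes 13.9% were lower and 33.5% higher by that limit. NDUFS8 stood at 236, 145, 123 and 167 CPM (-0.70 in MM.1S) and NDUFV1, which binds NADH, at 218, 243.5, 114 and 92.5 CPM (0.16). ATP5A1 and ATP5B, the alpha and beta subunits of the ATP synthase head, had ratios of -0.26 (717, 598, 142 and 176 CPM) and 0.35 (333, 426, 291 and 278 CPM). NDUFS7 had the lowest value of all (log2 -2.66), but this rests on 6 UMIs in cocultured MM.1S cells against 353 in monoculture (4.51 against 33.8 CPM, interval -4.36 to -1.77). NDUFS1 lay at 0.02 and NDUFS3 at -0.03, and UQCRC1 and UQCRFS1 both at -0.47. NDUFV2 fell under the minimum with 103, 12, 10 and 7 UMIs in the 4 groups.

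In HS-5 cells the nuclear genes were higher in coculture nearly throughout. Of the 82 averaging 10 CPM or more, 75 were higher and 7 lower, against 46.6% and 53.4% of all genes, and 36 were higher by 1.5-fold or more and none lower, against 7.78% higher and 9.88% lower among all genes. Their median log2 ratio was 0.48 (median bounds 0.37 and 0.69), beside -0.04 for all genes. All complexes shared the direction, with medians of 0.49 (I, 36 genes), 0.39 (II, 8 genes), 0.63 (III, 9 genes), 0.63 (IV, 12 genes) and 0.46 (V, 17 genes). Every gene of complexes III and IV that passed the minimum was higher, by at most 1.18 and 1.07 on the log2 scale.

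Among genes that averaged 50 CPM or more, HS-5 had its highest ratios for small accessory subunits. NDUFA12, a late-joining subunit of complex I, stood at 295.5 CPM in MM.1S monoculture, 343 in MM.1S in coculture, 213 in HS-5 monoculture and 552 in HS-5 in coculture, a log2 ratio of 1.37 in HS-5 (interval 1.26 to 1.49). ATP5J2 followed with 1.23 (interval 1.09 to 1.39) and UQCR10, a small subunit of complex III, with 1.18 (575, 595, 379 and 859 CPM, interval 1.09 to 1.27). NDUFA12 and UQCR10 were both within 1.5-fold of monoculture in MM.1S. NDUFA6 (226, 307, 260 and 557 CPM), COX6A1 and NDUFA4, a subunit now placed in complex IV (733, 669, 569 and 1155 CPM), had 1.095, 1.07 and 1.02. SDHAF3, an assembly factor of complex II under 50 CPM, had 1.09 from 6.51 to 14.9 CPM.

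The core subunits in HS-5 lay nearer their monoculture level. Their median was 0.31 over 13 genes and none passed 1.5-fold in either direction, whereas 36 of all 82 nuclear genes did. Among all genes 7.78% were higher and 9.88% lower by that limit, so the count of core genes lay near those shares. NDUFV1 had the lowest ratio of the nuclear genes with at least 50 CPM (-0.30, interval -0.53 to -0.09), followed by SDHAF2 (64.0, 73.7, 74.7 and 61.4 CPM, -0.28) and NDUFA10 (-0.09). ATP5B (-0.06) and UQCRC1 (0.01) lay at their monoculture level within counting error. UQCRC2 (0.43), NDUFS8 (0.43) and SDHB (0.42) were the highest core genes. No test of core against accessory genes was made.

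Transcript length moved with these ratios. Across 3695 genes averaging 50 CPM or more in HS-5, the ratio had a Spearman rho of -0.40 with the longest transcript's length, and the genes of at most 2100 bases had a median of 0.25. The nuclear OXPHOS genes are short, with a median of 1426 bases beside 3520 over all genes. With the length trend removed, their median in HS-5 was 0.32, beside -0.04 for all genes, and 19 instead of 36 were higher by 1.5-fold. In MM.1S rho was 0.31 over 3022 genes. Among the nuclear OXPHOS genes themselves it was -0.44 in HS-5 (73 genes) and -0.20 in MM.1S (76 genes), the latter opposite in sign to that of all genes. These are descriptions across genes of the same libraries, and the part of length was not tested.

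Opposite sides of 1.5-fold in the 2 lines were reached by 4 nuclear genes, all lower in cocultured MM.1S and higher in cocultured HS-5. COX7B had -0.83 in MM.1S and 0.78 in HS-5, but in cells of 500 to 1000 UMIs its MM.1S ratio turned to 0.19. NDUFB6 of the complex I membrane arm (342, 201, 246 and 423 CPM) had -0.77 and 0.78. NDUFS4, an accessory subunit of the peripheral arm, had -0.89 and 0.62 (MM.1S ratio -0.18 at that depth), and SDHAF3 had -1.05 and 1.09. Both ratios of a gene use the same coculture library, and the difference between lines was not tested. The share of all genes on opposite sides of the limit was not worked out, so whether this count is unusual is not known.

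The promoters of the genes at the ends of the 2 coculture comparisons are shown, since the nuclear genes lay on 1 side in HS-5 and on both in MM.1S. ATP5G2 and SDHD had the lowest ratios in MM.1S, and NDUFA12 and UQCR10 the highest in HS-5 among genes averaging 50 CPM or more that had a RefSeq promoter entry (71 of 89 nuclear genes matched by symbol). Sequences are from RefSeq (GRCh38.p14), run 5′ to 3′ on the gene's strand from 250 bases before the start to 30 after it, and have matches to CCGGAAG (ETS family), GCATGCG (NRF1) or AAGATGG (YY1), on either strand, in capitals.
ATP5G2 (ATP5MC2), chr12:53676054-53676333, minus strand: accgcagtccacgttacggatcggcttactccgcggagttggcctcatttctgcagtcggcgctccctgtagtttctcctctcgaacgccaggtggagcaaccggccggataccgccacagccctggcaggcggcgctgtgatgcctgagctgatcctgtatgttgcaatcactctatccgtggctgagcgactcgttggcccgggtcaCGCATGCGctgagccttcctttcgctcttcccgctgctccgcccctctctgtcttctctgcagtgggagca
SDHD, chr11:112086623-112086902, plus strand: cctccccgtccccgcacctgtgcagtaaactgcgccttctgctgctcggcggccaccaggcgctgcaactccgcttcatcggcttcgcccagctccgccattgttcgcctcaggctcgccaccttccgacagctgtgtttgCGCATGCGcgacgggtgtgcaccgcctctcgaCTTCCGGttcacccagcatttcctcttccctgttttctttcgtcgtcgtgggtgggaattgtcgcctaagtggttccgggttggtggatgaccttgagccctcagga
NDUFA12, chr12:95003668-95003947, minus strand: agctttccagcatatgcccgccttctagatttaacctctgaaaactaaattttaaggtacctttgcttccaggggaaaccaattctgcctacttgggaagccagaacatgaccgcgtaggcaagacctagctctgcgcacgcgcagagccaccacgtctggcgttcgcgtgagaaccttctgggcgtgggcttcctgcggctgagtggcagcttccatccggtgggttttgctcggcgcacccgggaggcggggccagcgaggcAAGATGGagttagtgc
UQCR10, chr22:29767119-29767398, plus strand: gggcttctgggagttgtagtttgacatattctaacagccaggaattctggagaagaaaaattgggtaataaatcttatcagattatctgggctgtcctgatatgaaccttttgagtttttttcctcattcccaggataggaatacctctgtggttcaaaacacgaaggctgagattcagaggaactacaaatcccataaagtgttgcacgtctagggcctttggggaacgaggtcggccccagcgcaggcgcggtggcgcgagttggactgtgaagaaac
ATP5G2 and SDHD each hold CGCATGCG, a palindrome that gives an NRF1 match on both strands, and SDHD also holds an ETS match. NDUFA12 holds a YY1 match after the start, and none of the 3 motifs is in the UQCR10 window.

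These 3 motifs belong to factors known from the promoters of respiratory genes. In windows from 250 bases before to 50 after the start, the ETS motif was in 29.6% of the 71 nuclear OXPHOS promoters and 10.7% of 27305 promoters of the same length. The NRF1 motif was in 19.7% against 4.13%, and the YY1 motif in 22.5% against 6.06%. The YY1 string contains ATG, so matches after the start, as in NDUFA12, may be start codons, and they were not counted apart. The Sp1 motif GGGCGG was in 60.6% against 44.6%, and it was not capitalised above. The median HS-5 ratio was 0.62 for the 21 genes with an ETS match and at least 10 CPM and 0.48 for the 44 without. For MM.1S these medians were -0.11 and -0.34. With and without an NRF1 match they were 0.45 and 0.49 in HS-5 and -0.42 and -0.27 in MM.1S. For YY1 they were 0.55 and 0.47 in HS-5 and -0.38 and -0.27 in MM.1S, and for Sp1 0.46 and 0.62 in HS-5 and -0.34 and -0.27 in MM.1S. None of these differences was tested. A match is an exact string of letters and not evidence of binding, and promoters with only a variant of a motif were counted as without it.

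Tissue-restricted isoforms of complex IV subunits were at or near 0 in both lines. COX6A2 had 0, 0, 0 and 1 UMIs in the 4 groups, COX7A1 12, 0, 1 and 0, COX8C 6, 0, 1 and 2, and COX6B2 14, 0, 4 and 2. NDUFA4L2 had 16 UMIs in MM.1S monoculture and none elsewhere. In a group with a count of 0 the level may reach the floor of 3 UMIs, that is 0.288, 2.25, 0.488 and 1.21 CPM in the 4 groups. COX7B2 was the exception, with 184 UMIs in MM.1S monoculture and 19 in MM.1S in coculture (17.6 and 14.3 CPM), against 3 and 1 UMIs in HS-5. The common forms COX4I1 (660, 506, 317.5 and 424 CPM), COX6B1 (651, 389, 371 and 509 CPM), COX7A2 (930, 762, 459 and 858 CPM) and COX8A (719, 555, 218 and 416 CPM) were all lower in coculture in MM.1S and higher in HS-5. COX4I2 was not among the gene symbols that the rule found in the counts, so its level is not known here.

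Between the monocultures, OXPHOS transcripts were lower in HS-5 than in MM.1S, most of all the mitochondrial ones. The MT- mRNA sum was 5.55-fold lower in HS-5 (log2 -2.47, interval -2.49 to -2.46). Of the 13 genes, 12 were lower by 1.5-fold, from MT-CO2 (-4.05) and MT-ND4L (-3.73) to MT-ND3 (-1.52) and MT-ND2 (-1.51), and MT-ATP8 was the exception (-0.10). Among all 8734 genes 21.8% were lower in HS-5 by that limit and 49.5% higher, with a median of 0.56. The median of the 13 was -2.22, far on the other side of that shift.

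Of 81 nuclear genes, 59 were lower and 22 higher in HS-5 monoculture, against 34% and 66% of all genes. By 1.5-fold, 40 were lower and 9 higher, with a median of -0.55 (median bounds -0.67 and -0.47). Among genes averaging 50 CPM or more, SDHAF3 was the lowest with 130 CPM in MM.1S and 6.51 in HS-5 (log2 -4.12), followed by UQCRH (-3.07) and COX6C, a nuclear subunit of complex IV (1333 against 217 CPM, -2.61). NDUFA13 (1.36), ATP5I (1.02) and ATP5E, the epsilon subunit of ATP synthase (1006 against 2029 CPM, 1.01), were the highest. Complex IV had the lowest median (-1.15 over 12 genes, 9 lower by 1.5-fold), and complex I the nearest to 0 (-0.32 over 36 genes). With the length trend removed the median was -0.06, beside 0.56 for all genes.

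Within the coculture, where both lines shared a library, the lines differed less. The MT- mRNA sum was lower in HS-5 (log2 -0.68, interval -0.71 to -0.66), and 4 of 13 genes were lower by 1.5-fold, MT-CO2 (-2.54), MT-CO3 (-0.94), MT-CYB (-0.69) and MT-ND5 (-0.62). All genes were lower in HS-5 by that limit in 25.2% and higher in 37%. The nuclear genes had a median of 0.17 (median bounds -0.05 and 0.34) over 81 genes, equal to the all-gene median of 0.17, with 46 higher and 35 lower (56% and 44% of all genes). By 1.5-fold, 24 were higher and 20 lower. UQCRFS1, the Rieske protein of complex III (81.2 CPM in MM.1S and 244 in HS-5, 1.58), NDUFB4 (157 and 452, 1.52) and COX7A2L (1.28) were highest. UQCRH (-2.13), UQCRHL (-2.09) and ATP5A1 (-1.76) were lowest, and UQCRH, COX6C and ATP5A1 were lower in HS-5 in monoculture as well. The 4 comparisons share their groups: this ratio is by arithmetic the monoculture difference plus the HS-5 change minus the MM.1S change.

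**Figure D3:**
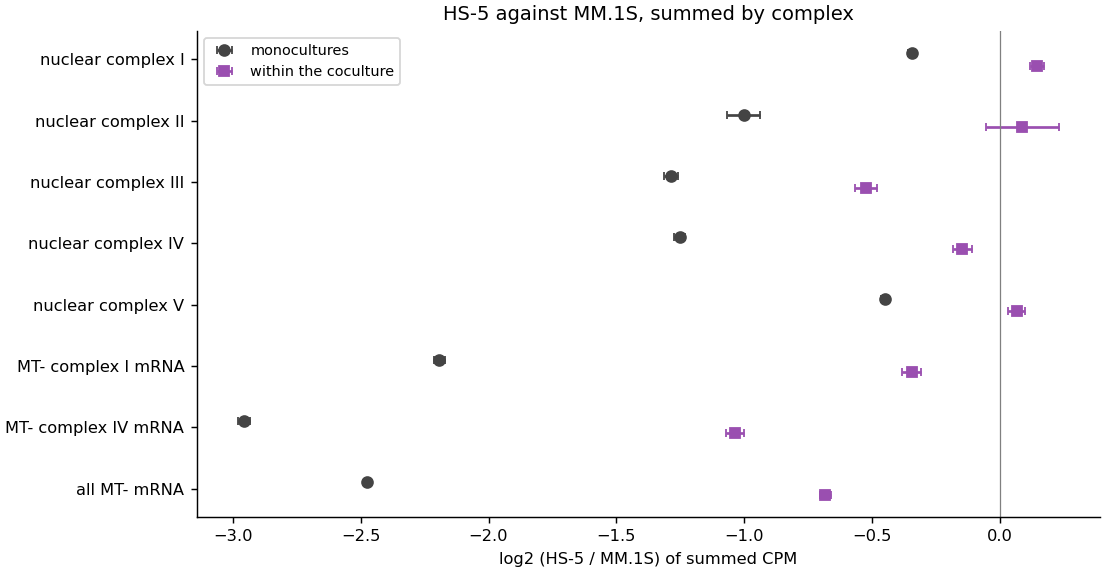
Log2 ratio of HS-5 to MM.1S of summed CPM, by complex for nuclear genes and for MT- mRNA, in the monocultures (circles) and within the coculture (squares), 1 library each, with exact 95% counting intervals. Ratios within the coculture lie nearer 0 than those of the monocultures in every row, as for all MT- mRNA (-0.68 against -2.47).

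The shares per cell gave the spread within each library. MT- mRNA made a median of 3.91% of a cell's UMIs in MM.1S monoculture (middle cells from 3.15% to 4.78%, quartiles) and 1.95% in MM.1S in coculture (1.31% to 2.68%). In HS-5 the medians were 0.501% (0.312% to 0.748%) in monoculture and 1.12% (0.724% to 1.64%) in coculture. The quartile ranges of the 2 cultures did not overlap in MM.1S and overlapped slightly in HS-5. Cells in which MT- mRNA made 5% or more were 20.5% of MM.1S monoculture (810 of 3947, exact binomial interval 19.3% to 21.8%) and 1.46% of MM.1S in coculture (24 of 1645, 0.937% to 2.16%). Nuclear OXPHOS genes made medians of 3.33%, 3.003%, 1.58% and 2.93% in the 4 groups. Thinned to 500 UMIs per cell, with shallower cells left out (445 of MM.1S in coculture, 217 of HS-5 monoculture and 301 of HS-5 in coculture), the nuclear medians were 3.2%, 3.2%, 1.6% and 3.0%, and the MT- mRNA medians 4%, 2%, 0.4% and 1.2%.

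In cells of like depth, the MT- mRNA difference held in every range of UMIs and the nuclear difference in MM.1S did not. At 1000 to 2000 UMIs, MT- mRNA made 4.22% in MM.1S monoculture (1602 cells) and 2.26% in coculture (329 cells), and at 2000 or more 3.89% (2268 cells) and 2.30% (50 cells). Nuclear OXPHOS genes in MM.1S made 3.20% and 3.47% at 1000 to 2000 UMIs, and 3.49% and 3.81% at 2000 or more. The nuclear share was thus higher in cocultured MM.1S cells in each of the 3 ranges that both groups filled, while over all cells it was lower (34159 CPM in monoculture against 32020). In both groups the share was larger in deeper cells, and the cocultured cells were the shallower ones. In HS-5 the nuclear share was higher in coculture in all 4 ranges, with 17164 CPM in monoculture against 26089 in coculture under 500 UMIs and 1.61% against 3.11% at 1000 to 2000. The ratio of coculture to monoculture was smallest at 2000 or more (24999 CPM in monoculture against 34492 in coculture).

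**Figure D4:**
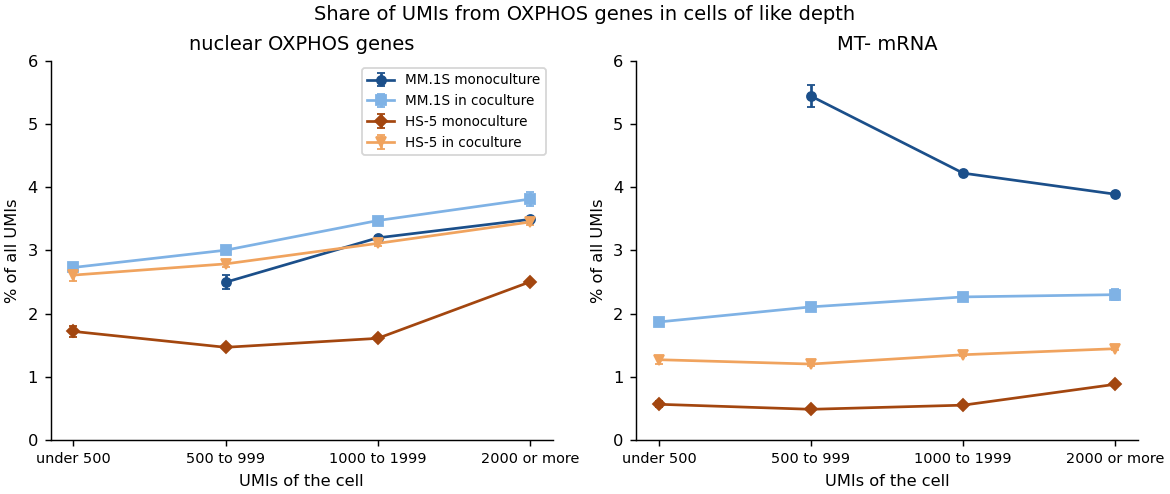
Share of all UMIs (%) from nuclear OXPHOS genes (left) and MT- mRNA (right) in cells grouped by their number of UMIs, for the 4 groups of cells, with exact 95% counting intervals; no MM.1S monoculture cell had under 500 UMIs. MT- mRNA is lower in cocultured MM.1S cells and higher in cocultured HS-5 cells at each depth, and the nuclear share is higher in coculture at each depth in both lines.

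Other abundant transcripts also differed between the cultures, and their part in these results was not tested. Cytosolic ribosomal protein genes made 187502 CPM in MM.1S monoculture, 120004 in MM.1S in coculture, 75408 in HS-5 monoculture and 86375 in HS-5 in coculture, with median log2 ratios of -0.56 in MM.1S and 0.16 in HS-5. The nuclear RNA MALAT1 stood at 37371 and 44246 CPM in MM.1S and at 21911 and 15969 CPM in HS-5, in monoculture and coculture. NEAT1 was 4.38-fold higher in cocultured MM.1S cells and 1.27-fold lower in cocultured HS-5 cells. The nuclear OXPHOS sum per ribosomal protein transcript was higher in coculture in both lines, from 0.182 to 0.267 in MM.1S and from 0.275 to 0.360 in HS-5.

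Other mitochondrial gene lists are to be read against the shares past 1.5-fold over all genes, which were 33.5% higher and 13.9% lower in MM.1S and 7.78% higher and 9.88% lower in HS-5. Of the assembly factors of the 5 complexes (51 in MM.1S, 53 in HS-5, of 53), 3 were higher and 10 lower by 1.5-fold in MM.1S (median 0.03), and 13 higher and 1 lower in HS-5 (0.24). The complex I factor NDUFAF3 had -0.85 in MM.1S and 0.98 in HS-5, and the complex IV factor HIGD2A had -1.37 in MM.1S. Mitochondrial ribosomal proteins had medians of -0.16 in MM.1S (7 higher and 10 lower of 74) and 0.28 in HS-5 (11 higher and 1 lower of 74). Factors that transcribe, process and translate the mitochondrial genome had 0.49 in MM.1S (10 higher and 2 lower of 29) and 0.02 in HS-5 (3 higher and 2 lower of 27), so that in MM.1S their share on the higher side was near that of all genes. Among genes of that list averaging 50 CPM or more, GFM1, a mitochondrial elongation factor, was highest in MM.1S (1.25), and SLIRP, which stabilises mitochondrial mRNAs, in HS-5 (1.07).

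The remaining lists were smaller, and the same all-gene shares apply (33.5% and 13.9% in MM.1S, 7.78% and 9.88% in HS-5). Genes named from them averaged 50 CPM or more, and others of a list could lie further out. Tricarboxylic acid cycle genes had medians of -0.14 in MM.1S (0 higher and 1 lower of 11) and 0.15 in HS-5 (1 higher and 1 lower of 11). At that level their ends were IDH2 (0.00) and IDH3G (-0.56) in MM.1S, and MDH2 (0.20) and FH (-0.39) in HS-5, whereas all 11 spanned -0.73 to 0.46 and -0.60 to 0.70. Carriers and channels had -0.02 in MM.1S (3 higher and 1 lower of 12, the phosphate carrier SLC25A3 highest at 0.76) and 0.32 in HS-5 (3 higher and none lower of 12, the pyruvate carrier subunit MPC2 highest at 0.83). Mitochondrial chaperones and prohibitins had 0.51 in MM.1S (4 higher and 1 lower of 8, HSPA9 highest at that level with 1.04) and -0.14 in HS-5 (1 higher of 6, HSPE1 at 0.98). Regulators of respiratory genes had 0.89 in MM.1S (6 higher and 1 lower of 10) and 0.15 in HS-5 (1 higher and 1 lower of 11), with NFE2L2 highest (1.23) at that level and MYC lowest (-1.06) in MM.1S. The electron carriers cytochrome c (CYCS) and cytochrome c1 (CYC1) had 0.33 and -0.58 in MM.1S, and -0.06 and 0.39 in HS-5, none past 1.5-fold.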

How the data were processed

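The authors deposited whole-number UMI counts per gene and cell barcode for 3 Drop-seq libraries, without normalization. The submitters' processing notes name Cell Ranger 3.0.2, UMI-tools 1.0.0, STAR 2.5.3a, Subread, featureCounts 1.6.4 and SAMtools 1.9, with builds GRCh38 and hg38 and no order. The annotation release, the use of strand and the choice of barcodes are not given in the sources used here. No column belonged to other samples (0).

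A cell needed 200 genes or more, and no doublet caller was run. In the coculture, cells whose line-specific UMIs were HS-5's in a share of at least 0.8 were called HS-5, those of at most 0.2 MM.1S, and those between or with under 5 such UMIs were left out (120 cells lay between 0.1 and 0.2, 21 between 0.8 and 0.9). Each line's UMIs in a library were added up and divided by their total (CPM), and log2 ratios have a pseudocount of 1 CPM. Medians and counts cover genes averaging 10 CPM or more over the 2 groups. Intervals of single genes and sums are exact (conditional binomial for ratios). Transcripts were counted near their 3′ end, so levels of different genes are not comparable, and log2 ratios compare groups within a gene or a fixed sum. Ratios between gene sets and shares of the mitochondrial mRNA pool are given as counted, with no correction between genes. Lengths come from GENCODE release 29 (43047 of 43913 symbols matched). Tools were numpy 2.4.6, scipy 1.17.1, pandas 2.3.3 and edgeR 4.0.16 (TMM factors only). The ratio step was tested on simulated data.

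The members and lists were chosen with earlier results of these data known. Genes named were the 13 MT- mRNAs, the 3 highest and 3 lowest nuclear genes of each comparison and the extremes of each complex with a mean of at least 50 CPM, core subunits, isoform sets, genes under 10 CPM and the extremes of the lists. Other genes were named after their values were seen. The values of 1 core subunit are not reported here. Alternatives were other limits on cells, scalings, weights, pseudocounts, minimum levels, line and doublet limits, subtraction of free RNA, subunits only, a 2-fold limit and removal of the length trend. Adding the mitochondrial pseudogenes was chosen after seeing the data.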

Additional observations from a re-analysis of the deposited data

Results flagged for a closer look

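Several results went opposite ways in the 2 lines, and with 1 library per condition the difference between the lines was not tested. The MT- mRNA sum had a log2 ratio of coculture to monoculture of -0.89 in MM.1S and 0.90 in HS-5. The median of the nuclear OXPHOS genes was -0.25 in MM.1S and 0.48 in HS-5, but in MM.1S its sign changed when only cells of like depth were compared. Among single nuclear genes past 1.5-fold in both lines, COX7B had -0.83 and 0.78 (0.19 in MM.1S at 500 to 1000 UMIs), NDUFB6 had -0.77 and 0.78, NDUFS4 had -0.89 and 0.62, and SDHAF3 had -1.05 and 1.09, the MM.1S value first. Both ratios of a gene rest on the same coculture library. How many of all genes pass the limit in both lines was not worked out.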

How the results depend on the processing

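No paired analysis was possible because each group is 1 sample, and no replicate could be left out for the same reason. Of 19 alternatives, those that apply to the MT- mRNA sum (14) kept its sign in all 4 comparisons. Those for the nuclear median (17) kept its sign except in MM.1S at 500 to 1000 UMIs.

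Values of the MT- mRNA sum that left its counting interval are as follows, as log2 ratios. For the MT- mRNA sum in MM.1S coculture against monoculture they were -0.65 with the limits of a common tutorial (200 to 2500 genes and under 5% MT- UMIs per cell), -1.37 at 500 to 1000 UMIs, -0.93 without MT- genes in the total, -1.01 without ribosomal protein genes in it, -1.43 with TMM, -0.98 with equal weight per cell and -0.86 with pseudogenes added. For HS-5 they were 1.18 (tutorial), 1.31 (500 to 1000 UMIs), 0.80 (TMM) and 1.20 (equal weight). For the monocultures they were -2.38 (tutorial), -3.50 (500 to 1000 UMIs), -2.53 (without MT- genes), -2.66 (without ribosomal protein genes), -2.82 (TMM), -2.86 (equal weight) and -2.45 (pseudogenes added). Within the coculture they were -0.55 (tutorial), -0.81 (500 to 1000 UMIs), -0.71 (without MT- genes), -0.74 (without ribosomal protein genes) and -0.60 (TMM). The tutorial limits leave out cells by their MT- share, which includes the compared sum, so their values are no independent check of it. They kept 1113 of 3947 cells in MM.1S monoculture and 1249 of 1645 for MM.1S in coculture.

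For the nuclear median, values outside the median bounds of its genes are listed, and these bounds are not an interval of the median itself. In MM.1S such values were 0.28 (500 to 1000 UMIs), -0.78 (TMM, all genes -0.29) and -0.020 (length, all genes 0.24). For HS-5 they were 0.89 (500 to 1000 UMIs), 0.69 (equal weight) and 0.32 (length), while 0.67 (tutorial) and 0.38 (TMM) lay inside the bounds. For the monocultures they were -1.03 (tutorial), -0.78 (500 to 1000 UMIs), -0.74 (without ribosomal protein genes), -0.90 (TMM), -1.09 (equal weight) and -0.056 (length, all genes 0.56). The cause of these shifts was not tested. In MM.1S, 8 higher and 13 lower genes became 24 and 8 at 500 to 1000 UMIs, 3 and 55 with TMM, 13 and 11 without the length trend, and 3 and 5 at 2-fold, and 22 were lower without ribosomal protein genes. In HS-5, 36 higher became 58 at 500 to 1000 UMIs (1 lower), 19 without the length trend and 8 at 2-fold. Between monocultures, 9 higher became 5 (TMM), 16 (length) and 4 (2-fold), and within the coculture 24 and 20 became 11 and 11 at 2-fold.

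Of 3075 recomputed values of 55 single genes, 5 past 1.5-fold changed sign. At 500 to 1000 UMIs these were COX7B in MM.1S (0.19), NDUFV2 between monocultures (0.86) and SDHA within the coculture (0.64). Without the length trend they were COX6B1 (0.15) and UQCR10 (0.36) between monocultures. Cocultured MM.1S cells, with 1330438 UMIs in all, set the precision of every ratio they enter.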
